A study of Mus musculus with 24 samples.

Results

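The genes described here are the semaphorins, plexins, neuropilins, ephrins and Eph receptors, the families through which axons and dendrites are guided by contact and by secreted cues. Members were found by matching gene symbols of these families among probe sets annotated with exactly 1 symbol, and each gene was read from its brightest probe set over all arrays. The rule found 53 genes (124 probe sets) of 18193 genes with such a probe set. One of the 53, Plxna4os1, is an antisense transcript at a plexin locus and no plexin itself. A filter on dim probe sets kept 47 of the 53. The ephrin Efna4, the receptors Epha1, Epha2, Epha8 and Ephb4, and Plxna4os1 fell below it and were not tested, with mean intensities between 4.43 and 22.3.

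The series holds 24 Affymetrix arrays that measured expression in mouse brain tissue (total RNA), in 4 groups of 6: hippocampus of low freezing animals, hippocampus of high freezing animals, and amygdala of the same 2 classes. The animals come from a cross of C57BL/6J with A/J, both inbred strains, and the title of the series names a selection for contextual fear conditioning, in which mice freeze in a place where they were shocked. Sex, age and the generation of selection are not given in the sources used here. The labels leave unsaid if the RNA on an array came from 1 animal or a pool, and each p-value therefore reflects array-to-array spread only, which may be technical.

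Semaphorins are secreted or membrane-bound cues that mostly repel growing axons. The secreted class 3 semaphorins bind neuropilins, which signal through class A plexins, whereas Sema3e binds Plxnd1 and the membrane-bound semaphorins bind plexins directly. Ephrins are tethered to membranes, so they act between touching cells: ephrin-A ligands mostly bind EphA receptors and ephrin-B ligands mostly bind EphB receptors, and Epha4 takes both kinds. In the adult hippocampus and amygdala these families are known for their roles at dendritic spines and synapses, and several are also made by oligodendrocytes.

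Promoter sequences of 5 genes are shown first, since 5 of the 6 EphA receptors tested were lower in amygdala. Epha7, Epha3 and Epha6 were the 3 receptors with the lowest level in amygdala relative to hippocampus, and Plxnb3 and Sema3a had the highest. RefSeq promoter entries of build GRCm38.p6 were matched by symbol for 46 of the 53 genes. Each line holds the 250 bases before the first listed start, 5′ to 3′ on the gene's strand, at chr4:28812881-28813130 (+ strand), chr16:63864176-63864425 (- strand), chr16:60605532-60605781 (- strand), chrX:73756853-73757102 (+ strand) and chr5:13396534-13396783 (+ strand). Capitals mark the GC box GGGCGG or its reverse complement CCGCCC.
Epha7: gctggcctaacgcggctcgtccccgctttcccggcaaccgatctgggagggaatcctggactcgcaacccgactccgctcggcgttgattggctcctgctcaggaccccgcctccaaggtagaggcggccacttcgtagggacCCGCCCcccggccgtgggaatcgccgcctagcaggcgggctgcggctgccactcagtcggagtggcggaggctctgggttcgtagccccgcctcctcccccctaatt
Epha3: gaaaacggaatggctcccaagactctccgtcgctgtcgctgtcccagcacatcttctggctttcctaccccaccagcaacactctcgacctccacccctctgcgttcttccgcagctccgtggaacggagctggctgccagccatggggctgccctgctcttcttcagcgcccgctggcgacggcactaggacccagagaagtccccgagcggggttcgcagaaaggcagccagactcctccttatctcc
Epha6: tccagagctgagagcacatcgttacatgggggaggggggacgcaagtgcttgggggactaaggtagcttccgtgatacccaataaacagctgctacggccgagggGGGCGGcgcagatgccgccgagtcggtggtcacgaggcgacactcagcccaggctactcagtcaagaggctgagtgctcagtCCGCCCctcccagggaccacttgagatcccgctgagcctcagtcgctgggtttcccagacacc
Plxnb3: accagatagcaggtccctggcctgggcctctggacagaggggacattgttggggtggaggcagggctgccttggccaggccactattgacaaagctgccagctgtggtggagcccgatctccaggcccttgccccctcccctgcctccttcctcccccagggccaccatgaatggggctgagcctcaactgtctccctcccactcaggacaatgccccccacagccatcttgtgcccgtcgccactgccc
Sema3a: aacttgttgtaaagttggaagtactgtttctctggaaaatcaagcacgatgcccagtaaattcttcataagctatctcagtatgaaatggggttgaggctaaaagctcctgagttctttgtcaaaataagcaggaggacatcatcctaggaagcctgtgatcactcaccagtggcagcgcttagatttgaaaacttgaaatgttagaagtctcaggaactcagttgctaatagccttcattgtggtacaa

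The 3 receptor promoters held 25, 16 and 15 CG dinucleotides, in the order of the lines, against 3 for Plxnb3 and 2 for Sema3a. Those 5 were picked by their regional difference; over all matched genes past the regional threshold the median was 17 for the 17 lower and 10 for the 13 higher in amygdala. Over the 46 matched genes the median was 16, which was also the median over 10100 tested genes in the promoter table. The 46 include guidance genes that were too dim to test, whereas the 10100 were all tested. The GC box was present on either strand in 36 of 46 promoters (78.3%), against 59.5% of the 10100 tested genes and 32.7% of all 32851 promoter windows of this length. Among matched genes past the regional threshold described next, it was present in 8 of 13 that were higher in amygdala and 15 of 17 that were lower. The other motifs searched on both strands were rarer. TATAAA was in 1 of 46 promoters (6.33% of tested genes), the cAMP response element TGACGTCA in 1 (2.72%), the E-box CAGATG in 4 (9.98%) and the Sox core AACAAT in 3 (5.29%). These are matches of letters within these windows and say nothing of binding.

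The first comparison set amygdala against hippocampus over both freezing classes, 12 arrays against 12. Most of the family differed: of 47 genes tested, 17 were higher in amygdala, 19 were lower and 11 did not pass. In amygdala 5 EphA receptors and both neuropilins were lower, by 2.05-fold to 4.86-fold, whereas Plxnb3, Sema3a and Sema6a were higher, by 2.32-fold to 3.75-fold. All differences were tested on log2(intensity + 16) with limma and Benjamini-Hochberg adjustment over 27022 probe sets at 0.05, and a fold on that scale understates the change of dim genes. A lower level in tissue can come from fewer cells of a type or from less RNA per cell, and bulk arrays cannot tell these apart.

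Regional differences were common on these arrays, so the counts are read against that background. Over all probe sets tested 51.2% passed, 27.1% higher and 24.1% lower in amygdala; over the brightest probe set of each of 12471 genes 56.3% passed, 31.7% higher and 24.6% lower. Of the guidance genes 76.6% passed. Their median log2 difference was -0.03, beside 0.04 over all genes. A difference of at least 2-fold was reached by 12 of 47 guidance genes and by 5.55% of probe sets. The 12 include Sema3b, a dim gene whose difference depends on the offset, as described below. In 16 genes the 2 regions' arrays did not overlap, 7 with every amygdala array higher and 9 with every amygdala array lower, and 13.2% of probe sets were separated in this way. The shares of 5.55% and 13.2% are over all probe sets tested, not over the brightest probe set of each gene.

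The region was also tested within each freezing class, as 2 contrasts of the same fit on 6 arrays against 6. In both classes 31 genes passed with the same sign, and 40 of 47 had the same sign whether or not they passed. Among the genes with called differences, 39 further probe sets could be tested, covering 19 genes. All 39 had the sign of the brightest probe set, and 37 of them passed as well. Standard errors of the 47 log2 differences ran from 0.05 to 0.29.

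**Figure D1:**
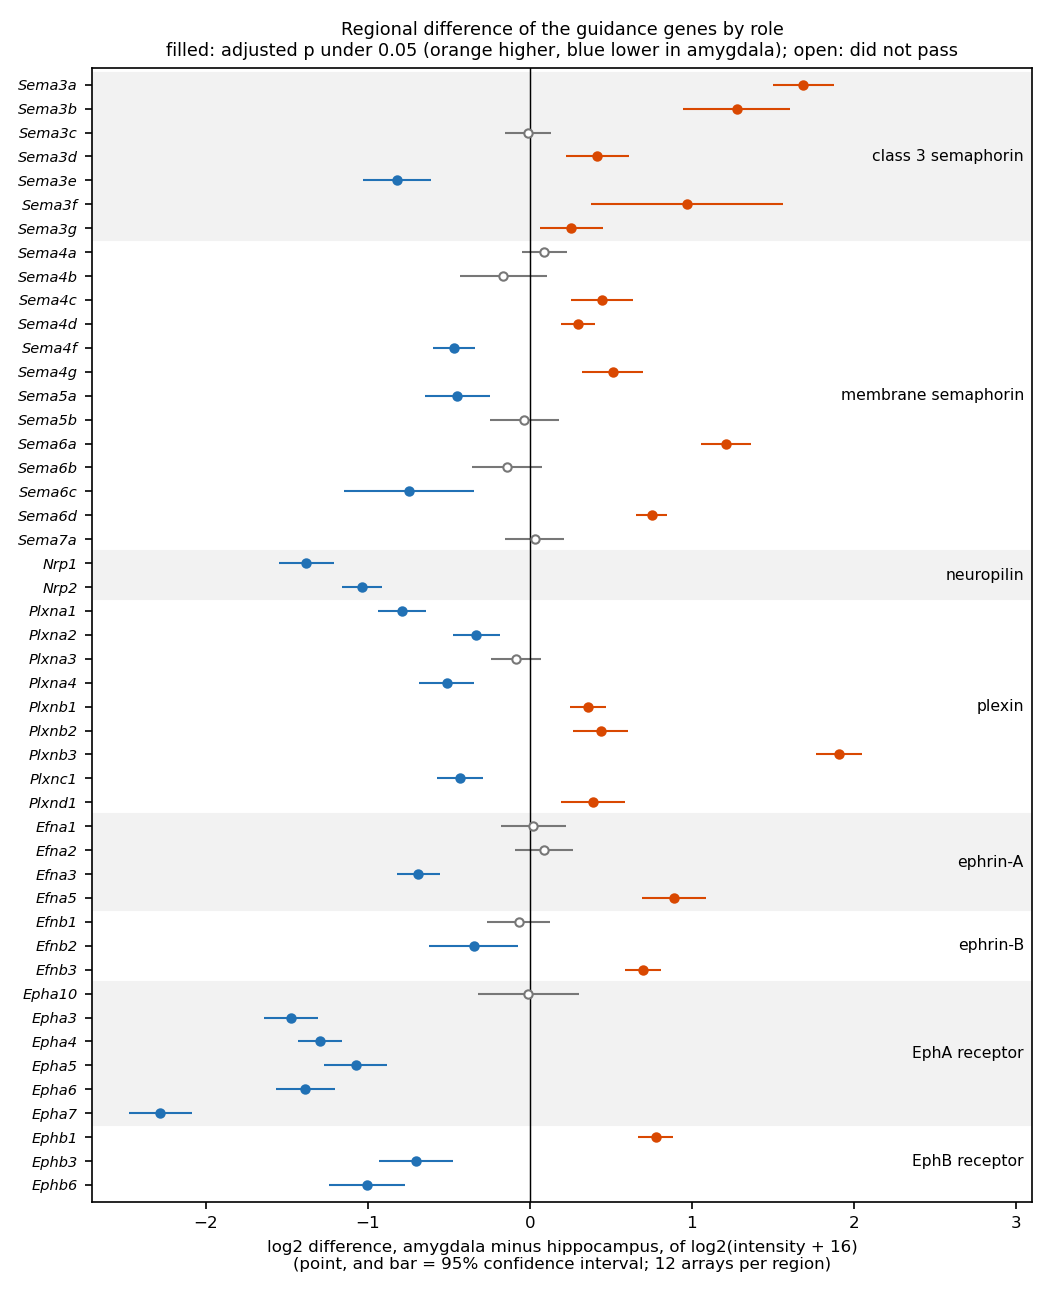
Regional log2 difference of 47 guidance genes, amygdala minus hippocampus, with 95% confidence intervals from 12 arrays per region, grouped by role (horizontal axis, log2 units). The EphA receptors other than Epha10 and both neuropilins lie well below 0, the class B plexins lie above 0, and the semaphorins lie on both sides.

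Among the EphA receptors tested the differences ran one way. Of the 6 that were tested, 5 were lower in amygdala and none was higher, with a median log2 difference of -1.34, and in all 5 every amygdala array lay below every hippocampus array. Epha1, Epha2 and Epha8 were too dim to test. Of these, Epha8 had the higher median in amygdala, at 29 (21.6 to 50) against 7.95 (2.86 to 27.3) in hippocampus. The medians of Epha1 (9.57 against 9.8) and Epha2 (8.19 against 19.2) were lower in amygdala. Epha7, a receptor that restrains dendrites in developing cortex, showed the lowest regional log2 difference of all 47 genes. On the hippocampus arrays its intensity was 509 to 797 (median 662, mean 665 ± 84.1 SD), and on the amygdala arrays it was 69.3 to 179 (median 123, mean 127 ± 32.7 SD), n = 12 each. The log2 difference of Epha7 was -2.28 (SE 0.09, adjusted p = 3.09e-18), a 4.86-fold lower level, and its 3 other probe sets gave -2.08, -1.86 and -1.55.

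Epha4, which sits on dendritic spines and binds ephrins of both classes, read 809 to 1509.7 (median 1141, mean 1121 ± 213 SD) in hippocampus. Every amygdala array was lower, at 378 to 519 (median 434, mean 442 ± 44.4 SD). Its log2 difference was -1.30 (SE 0.07, adjusted p = 3.28e-16), or 2.45-fold. Epha3 lay at 128 to 188 (median 145, mean 152 ± 18.5 SD) in hippocampus and at 29.9 to 55.7 (median 45.9, mean 44.6 ± 8.53 SD) in amygdala, a log2 difference of -1.47 (SE 0.08, adjusted p = 2.55e-15). Epha6 read 124 to 202 (median 149.6, mean 154 ± 21.3 SD) in hippocampus and 34.6 to 72.4 (median 50.8, mean 49.4 ± 11 SD) in amygdala, a log2 difference of -1.38 (SE 0.09, adjusted p = 7.47e-14). These 2 receptors lie on chromosome 16 with 4 protein-coding genes between them in the RefSeq gene order. Epha5, known for guiding topographic projections, read 409 to 573 (median 491, mean 492 ± 45.6 SD) in hippocampus and 165 to 329 (median 215, mean 231 ± 58.2 SD) in amygdala, a log2 difference of -1.07 (SE 0.10, adjusted p = 8.63e-11). The exception was Epha10, an Eph receptor without an active kinase, at -0.01 (adjusted p = 0.964). Its arrays spread from 37.3 to 122 (median 71.5) in hippocampus and 39.2 to 112 (median 64.9) in amygdala, so the regions overlapped almost fully.

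Ligands of these receptors were mixed. Of 4 ephrin-A genes tested, Efna5 was higher in amygdala, Efna3 was lower, and Efna1 and Efna2 did not pass. Efna5, a ligand that repels axons carrying EphA receptors, ran 46.1 to 109 (median 84.8, mean 85.1 ± 19.5 SD) in hippocampus and 136 to 204 (median 166, mean 169 ± 20.1 SD) in amygdala with no overlap. The log2 difference of Efna5 was 0.89 (SE 0.10, adjusted p = 4.97e-09). Efna3, which astrocytes present to Epha4 on spines, went the other way, with 269 to 377 (median 317, mean 319 ± 32.3 SD) in hippocampus and 161 to 232 (median 188, mean 192 ± 24.2 SD) in amygdala, again with no overlap, and its log2 difference was -0.69 (SE 0.06, adjusted p = 2.82e-10). Efna1 stood at 0.02 (adjusted p = 0.873) and Efna2 at 0.09 (adjusted p = 0.425). Efna1 and Efna3 are direct neighbours on chromosome 3 with no protein-coding gene between them, and only Efna3 passed the regional test; the difference between the 2 genes was not tested.

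**Figure D2:**
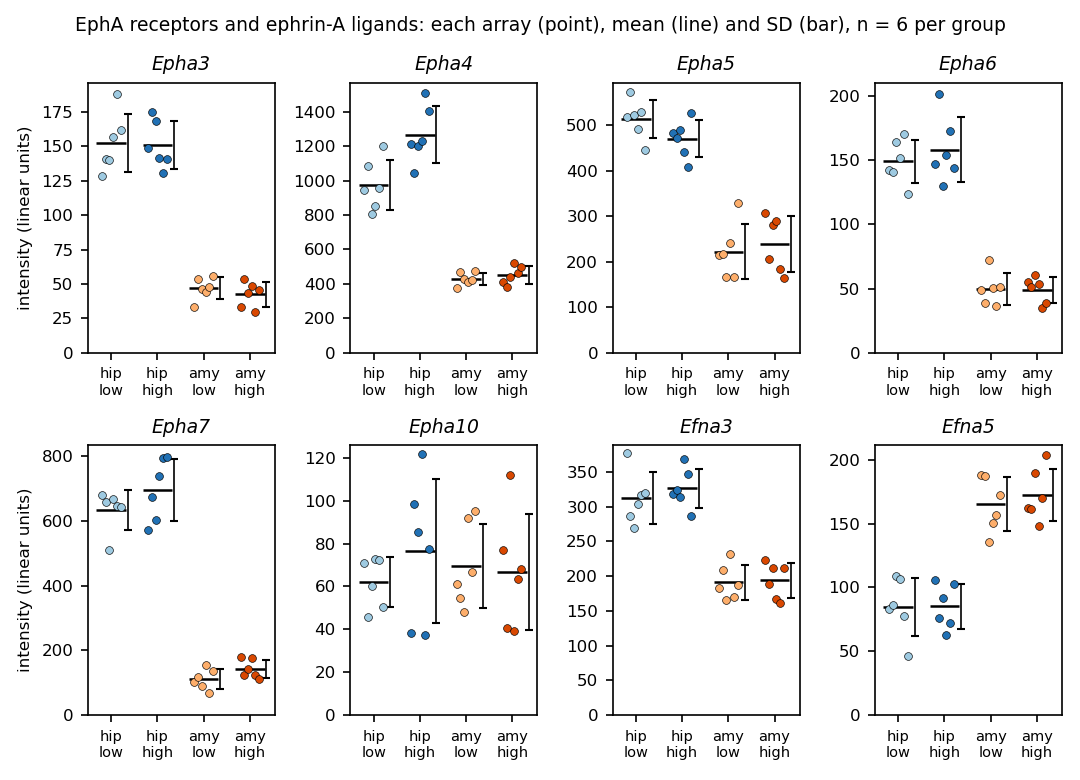
Linear intensity (vertical axes) of 6 EphA receptors and 2 ephrin-A ligands on each of the 24 arrays, by region and freezing class; points are arrays, lines are group means and bars are SD over 6 arrays. Epha3 to Epha7 and Efna3 are lower on every amygdala array, Epha10 overlaps, and Efna5 is higher on every amygdala array.

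The B side of the family was mixed. Ephb1, which steers axons at the midline, was higher in amygdala on every array, at 246 to 350.1 (median 280.1, mean 289 ± 31.3 SD) against 135 to 187 (median 164, mean 162 ± 15.8 SD) in hippocampus, with a log2 difference of 0.78 (SE 0.05, adjusted p = 4.37e-13). Ephb6, a receptor whose kinase is inactive, was lower, at 45.2 to 112 (median 68.6, mean 74.3 ± 19.4 SD) against 105 to 199 (median 174, mean 164 ± 30.9 SD), and the ranges met only at their ends. Its log2 difference was -1.01 (SE 0.11, adjusted p = 1.23e-08). Ephb3, which takes part in spine formation, was lower too, by a log2 difference of -0.70 (SE 0.11, adjusted p = 4.25e-06). Among the transmembrane ephrin-B ligands, Efnb3 was higher in amygdala without overlap. It read 584 to 836 (median 707) there and 376 to 532 (median 420.1) in hippocampus, a log2 difference of 0.70 (SE 0.05, adjusted p = 6.49e-12). Efnb2 was lower at -0.35 (adjusted p = 0.0306), and Efnb1 did not pass at -0.07 (adjusted p = 0.577). The call of Efnb2 was lost within low freezing arrays (adjusted p = 0.243) and within high freezing arrays (adjusted p = 0.0907). It was also lost without low freezing amygdala replicate 5 (adjusted p = 0.061) and without high freezing amygdala replicate 11 (adjusted p = 0.0605). The other tested Efnb2 probe sets gave -0.44 (adjusted p = 0.000187) and -0.51 (adjusted p = 0.00883) over all arrays.

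Both neuropilins were lower in amygdala. Nrp1, the receptor of Sema3a and also of vascular growth factors, read 931 to 1331 (median 1120.1, mean 1122 ± 118 SD) in hippocampus and 257 to 621 (median 422, mean 429 ± 98.1 SD) in amygdala. The log2 difference of Nrp1 was -1.38 (SE 0.08, adjusted p = 2.04e-14), 2.60-fold lower, and its 3 other probe sets gave -1.51, -1.66 and -1.38. Nrp2, the receptor of Sema3f, read 178 to 244 (median 217, mean 215 ± 18.7 SD) in hippocampus and 76.6 to 118 (median 96.5, mean 97.5 ± 14.3 SD) in amygdala, a log2 difference of -1.03 (SE 0.06, adjusted p = 9.75e-15). Neither gene had any amygdala array within the hippocampus range.

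Plexins split by class. The class A plexins, which carry neuropilin signals, were lower in amygdala in 3 of 4 cases. Plxna1 was at 241 to 294 (median 269, mean 266 ± 16.9 SD) in hippocampus and 111 to 201 (median 146, mean 149 ± 26.2 SD) in amygdala without overlap, a log2 difference of -0.79 (SE 0.07, adjusted p = 1.41e-10). Plxna4 followed at -0.51 (adjusted p = 6.49e-06) and Plxna2 at -0.33 (adjusted p = 0.000224), both with overlapping arrays. Plxna3 did not pass by its brightest probe set, at -0.08 (adjusted p = 0.382). Its second, dimmer probe set was lower at -0.33 (adjusted p = 0.0133), so the count depends on the probe set read. The class B plexins, which bind class 4 semaphorins and, for Plxnb3, Sema5a, were higher in amygdala in 3 of 3 cases.

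Plxnb3, a plexin known from oligodendrocytes, had the highest regional difference of the 47 genes. Its intensity lay at 104 to 154 (median 133, mean 132 ± 15.7 SD) on the hippocampus arrays and at 407 to 656 (median 531, mean 539.6 ± 72 SD) on the amygdala arrays, with no overlap. The log2 difference was 1.91 (SE 0.07, adjusted p = 1.84e-19), a 3.75-fold higher level, and the second probe set gave 1.62. Plxnb1 and Plxnb2 were higher by much less, at 0.36 (adjusted p = 2.49e-06) and 0.44 (adjusted p = 4.59e-05). Plxnd1, a receptor of Sema3e that is also known from vessels, was higher at 0.39 (adjusted p = 0.00103), and Plxnc1, the receptor of Sema7a, was lower at -0.43 (adjusted p = 6.8e-06). The other tested Plxnc1 probe sets gave -0.62, -0.15 and -0.41, of which -0.15 did not pass (adjusted p = 0.321). The call of Plxnd1 did not hold within high freezing arrays (adjusted p = 0.141).

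Among the secreted class 3 semaphorins, 5 of 7 were higher in amygdala, 1 was lower and 1 did not pass. Sema3a, the classic repellent cue that acts through Nrp1, read 32.4 to 58.4 (median 52, mean 48.8 ± 9.46 SD) in hippocampus and was higher on every amygdala array, at 147 to 256 (median 187, mean 193 ± 32 SD). Its log2 difference was 1.69 (SE 0.09, adjusted p = 1.8e-15), or 3.22-fold. Its 2 other probe sets were too dim to test. Sema3e moved the opposite way, with 306 to 579 (median 458, mean 451 ± 81.3 SD) in hippocampus and 115 to 323 (median 261, mean 252 ± 54.4 SD) in amygdala, a log2 difference of -0.82 (SE 0.10, adjusted p = 8.23e-08). The 2 genes lie on chromosome 5 with 3 protein-coding genes between them, and Sema3d, next to Sema3a with none between, was higher at 0.42 (adjusted p = 0.000522).

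Sema3b and Sema3f, secreted ligands of neuropilins, were higher in amygdala. Sema3b read 1.39 to 30.7 (median 13.5, mean 13 ± 9.88 SD) in hippocampus, with the median below the lowest mean intensity that passed the filter (23.3), and 28.8 to 79.4 (median 52.6, mean 52.2 ± 15.3 SD) in amygdala, with a slight overlap. The log2 difference of Sema3b was 1.28 (SE 0.16, adjusted p = 9.69e-08). Its size depends on the offset added before the log, at 2.31 with an offset of 1 and 0.59 with 64, and the gene passed the filter through its amygdala arrays, so no fold is given. Sema3f varied widely within both regions, from 8.89 to 129.5 (median 33.3, mean 43.4 ± 39.1 SD) in hippocampus and 20.6 to 130.1 (median 98.3, mean 89.3 ± 38.8 SD) in amygdala, and its log2 difference of 0.97 (SE 0.29, adjusted p = 0.00589) had the highest standard error of the 47. With an offset of 64 it was 0.54. Within high freezing arrays Sema3f did not pass (log2 difference 0.68, adjusted p = 0.207). Neither gene had a second probe set bright enough to test. These 2 genes are also close on chromosome 9, with 3 protein-coding genes between them. Sema3g was higher at 0.26 (adjusted p = 0.0251), a call lost within high freezing arrays (log2 difference 0.12, adjusted p = 0.52). The call was also lost under quantile normalization (adjusted p = 0.124), under median centring (adjusted p = 0.108), and without high freezing hippocampus replicate 7 (adjusted p = 0.0503) or high freezing amygdala replicate 9 (adjusted p = 0.051). Sema3c did not pass at -0.01 (adjusted p = 0.926).

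Of 13 membrane-bound semaphorins, 5 were higher in amygdala, 3 were lower and 5 did not pass. Sema6a, a transmembrane ligand of class A plexins, was at 43.8 to 61.9 (median 52.7, mean 52.8 ± 7.11 SD) in hippocampus and 111 to 192 (median 141, mean 144 ± 21.5 SD) in amygdala without overlap, a log2 difference of 1.21 (SE 0.08, adjusted p = 3.77e-14). A further Sema6a probe set gave 0.45, the same sign at a smaller size. Sema6d, which binds Plxna1, was at 856 to 1005 (median 891, mean 907 ± 48.1 SD) in hippocampus and 1278 to 1823 (median 1525, mean 1543 ± 155 SD) in amygdala, again without overlap. Its log2 difference was 0.75 (SE 0.05, adjusted p = 5.85e-14), and its 2 other tested probe sets gave 0.36 and 0.16, of which the latter did not pass. Sema6c was lower at -0.75 (adjusted p = 0.00205), a call lost within high freezing arrays (log2 difference -0.68, adjusted p = 0.0538). It read 11.6 to 68.7 in amygdala, with a median of 16.6, below the lowest mean intensity that passed the filter (23.3). In hippocampus it read 31.3 to 119 (median 58.7), and its other probe sets were too dim to test. Sema6b did not pass at -0.14 (adjusted p = 0.271).

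In class 4, Sema4d, the ligand of Plxnb1, was higher in amygdala at 0.30 (adjusted p = 1.22e-05). Its second tested probe set gave a larger difference, 1.09 (adjusted p = 5.12e-14). Sema4g and Sema4c were higher at 0.51 (adjusted p = 2.5e-05) and 0.45 (adjusted p = 0.000164), and Sema4f was lower at -0.47 (adjusted p = 2.84e-07). Sema4a and Sema4b did not pass at 0.09 (adjusted p = 0.274) and -0.16 (adjusted p = 0.308). The second probe set of Sema4a passed narrowly, at 0.15 (adjusted p = 0.0484). Sema5a, a ligand of Plxnb3, was lower at -0.45 (adjusted p = 0.00035), and its second tested probe set gave -0.98 (adjusted p = 4.84e-13). The related Sema5b did not pass at -0.03 (adjusted p = 0.807). Sema7a, which is anchored to the membrane by a lipid, did not pass at 0.03 (adjusted p = 0.808).

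Set side by side, known pairs of ligand and receptor differed in the same direction in some cases and in opposite directions in others. Sema4d and Plxnb1 were both higher in amygdala. Sema3a was higher while Nrp1 was lower, Sema3f was higher while Nrp2 was lower, and Sema6d was higher while Plxna1 was lower. Sema3e was lower while Plxnd1 was higher, and Sema5a was lower while Plxnb3 was higher. Efna3 and Epha4 were both lower. Efna5 was higher while 5 of 6 tested EphA receptors were lower. Sema6a was higher while 3 of 4 class A plexins were lower by their brightest probe sets. The calls of Sema3f and Plxnd1 did not hold within high freezing arrays. A pair's levels were not compared with each other, since probe sets differ in brightness for the same amount of RNA.

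**Figure D3:**
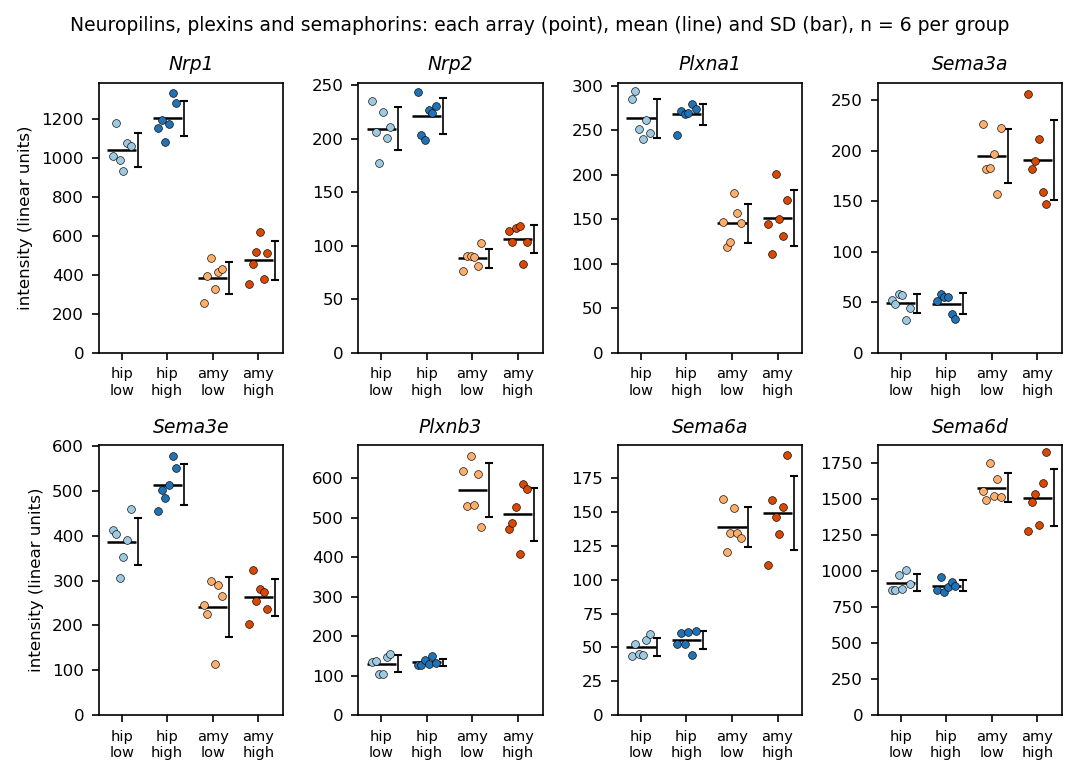
Linear intensity (vertical axes) of Nrp1, Nrp2, Plxna1, Sema3a, Sema3e, Plxnb3, Sema6a and Sema6d on each array by region and freezing class; points are arrays, lines are group means and bars are SD over 6 arrays. Nrp1, Nrp2 and Plxna1 are lower on every amygdala array, Sema3a, Plxnb3, Sema6a and Sema6d are higher on every amygdala array, and Sema3e overlaps.

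Markers of the cells and areas in the samples moved with region as well. The amygdala-labelled arrays carried markers of central amygdala and striatum: 8 of 8 were higher, with a summed intensity of 5303 to 9573 against 579 to 683 in hippocampus, and Isl1 at 2.47 in hippocampus and 271 in amygdala. Of 6 basolateral amygdala markers, 1 was higher in amygdala (Otof), 4 were lower and 1 did not pass. All 5 excitatory neuron markers were lower in amygdala, with sums of 1221 to 2524 against 4607 to 6444, and so were 8 of 9 dentate granule and 8 of 9 CA pyramidal markers. All 9 oligodendrocyte markers were higher, with sums of 37132.5 to 51477 against 14390.4 to 19526, and so were 5 of 5 markers of their precursors. All 6 choroid plexus and ependyma markers were higher, with sums of 14132 to 20623.5 in amygdala and a wide 1886 to 13349 in hippocampus. Of the other lists, 3 of 3 GABAergic neuron, 6 of 7 microglia and 3 of 6 endothelium and mural cell markers were higher and none was lower. Of 6 astrocyte markers 5 were higher and 1 was lower, of 7 thalamus and hypothalamus markers 3 were higher and 2 were lower, and the 1 blood marker tested did not pass. The part of these cell types in the regional differences of the guidance genes was not tested.

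**Figure D4:**
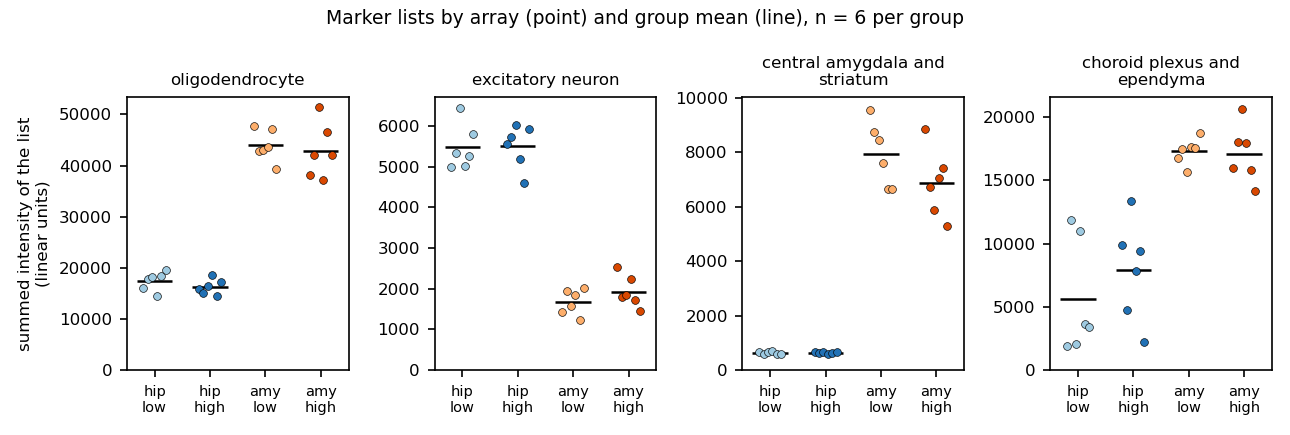
Summed linear intensity of 4 marker lists (vertical axes) on each array, by region and freezing class; points are arrays and lines are group means. Oligodendrocyte, central amygdala and striatum, and choroid plexus and ependyma markers are higher on every amygdala array, excitatory neuron markers are lower on every amygdala array, and the choroid plexus sum varies among hippocampus arrays.

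Genes that work with these families were read from 3 lists, against the 56.3% of all genes that passed the regional test. Of 34 tested semaphorin co-receptors and effectors, 15 were higher in amygdala, 7 were lower and 12 did not pass. The 3 with the largest differences past the threshold were Cntn2, an axonal adhesion protein (log2 difference 1.84), Rnd2, a small GTPase (1.30), and Chl1, an adhesion molecule that partners Nrp1 (-1.12). Of 30 ephrin and Eph effectors, 11 were higher, 15 were lower and 4 did not pass. Kalrn, an exchange factor that acts on spines, was at -2.03. The chimaerins, which switch off Rac, went opposite ways: Chn1, known to act under Epha4, was at -1.31 and Chn2 at 1.99. Of 20 netrin, slit and RGM genes, 8 were higher, 10 were lower and 2 did not pass, and the 3 largest were the netrin receptor Unc5b (1.39) and the secreted repellents Slit1 (-1.14) and Slit3 (-1.03).

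The second question was whether these genes differ between high and low freezing animals, tested within each region on 6 arrays against 6. No guidance gene passed the threshold in either region. Few probe sets did at all: 0.0518% in hippocampus and 0.0555% in amygdala. At an unadjusted p under 0.05 there were 3 of 47 guidance genes in hippocampus, against 11.8% of probe sets, and 6 of 47 in amygdala, against 10.7%. The log2 differences ran from -0.22 to 0.40 in hippocampus and from -0.37 to 0.38 in amygdala, and 34 and 22 of 47 genes respectively were above 0, beside 50.4% and 49.3% of all genes. A p that misses the threshold does not show that the levels were equal.

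In hippocampus the smallest p belonged to Epha4. The 6 low freezing arrays read 809 to 1203 (median 952) and the 6 high freezing arrays 1044 to 1509.7 (median 1222). The 2 sets of arrays overlapped, and the log2 difference was 0.38 (95% interval 0.19 to 0.57, unadjusted p = 0.000349, adjusted p = 0.119). Other Epha4 probe sets did not share it. Their hippocampal differences were 0.08, -0.01, -0.37 and -0.39, with unadjusted p of 0.338, 0.913, 0.000615 and 0.00135. The high minus low freezing difference thus had opposite signs in the brightest Epha4 probe set and the 2 dimmest, while all 5 were lower in amygdala.

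Sema3e in hippocampus read 306 to 459.8 (median 397) on low and 456 to 579 (median 509) on high freezing arrays, which overlapped only slightly. Its log2 difference was 0.40 (95% interval 0.11 to 0.70, unadjusted p = 0.00969, adjusted p = 0.251), and its 3 other probe sets lay above 0 too, at 0.15, 0.01 and 0.25. Plxna3 read 79.4 to 107 (median 82.4) on low and 87.8 to 121 (median 108) on high freezing arrays, with much overlap, a log2 difference of 0.22 (95% interval 0.00 to 0.44, unadjusted p = 0.0486, adjusted p = 0.418). Beside these values, the 6 choroid plexus and ependyma markers were all above 0 in hippocampus for high minus low freezing (median log2 difference 0.32), with sums of 1886 to 11862 on low and 2202 to 13349 on high freezing arrays. All 7 microglia markers were below 0 there (median -0.13), with sums of 2686 to 3335 on low and 2569.6 to 2954 on high freezing arrays. The lowest p among them was that of Trem2 (log2 difference -0.97, unadjusted p = 0.000161, adjusted p = 0.0976). The part of these markers in the result was not tested.

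In amygdala the smallest p was that of Nrp2. Low freezing arrays read 76.6 to 103 (median 89.6) and high freezing arrays 83.4 to 118 (median 109), overlapping, with a log2 difference of 0.23 (95% interval 0.05 to 0.41, unadjusted p = 0.0122, adjusted p = 0.311). Its other 3 probe sets lay at 0.19, 0.11 and 0.49, all above 0. Nrp1 was above 0 as well, at 0.29 (95% interval 0.05 to 0.53, unadjusted p = 0.0205, adjusted p = 0.358). Sema4d read 222 to 268 (median 240.1) on low and 184 to 232 (median 210.5) on high freezing arrays, a log2 difference of -0.18 (95% interval -0.33 to -0.04, unadjusted p = 0.0164, adjusted p = 0.339), and its second tested probe set lay at 0.14. In hippocampus the 2 Sema4d probe sets lay at -0.01 and -0.37, the latter with an unadjusted p of 0.000807 (adjusted p = 0.133).

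Epha7 in amygdala read 69.3 to 154 (median 109) on low and 110.3 to 179 (median 133) on high freezing arrays. The log2 difference was 0.33 (95% interval 0.06 to 0.60, unadjusted p = 0.0196, adjusted p = 0.354), and its other 3 probe sets lay at 0.06, -0.05 and 0.17, on both sides of 0. The remaining genes under an unadjusted p of 0.05 were Sema5b at 0.35 and Ephb1 at -0.16. The second tested Sema5b probe set lay at -0.12 (unadjusted p = 0.604), on the other side of 0. All 8 central amygdala and striatum markers were below 0 for high minus low freezing in amygdala (median log2 difference -0.28), with sums of 6649 to 9573 on low and 5303 to 8865 on high freezing arrays, and all 5 excitatory neuron and all 6 basolateral amygdala markers were above 0. All 7 microglia markers were below 0 (median -0.24), with sums of 3360.3 to 4885 on low and 3289.5 to 3824 on high freezing arrays. None of these markers passed the threshold, and their part in the values of the guidance genes was not tested.

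**Figure D5:**
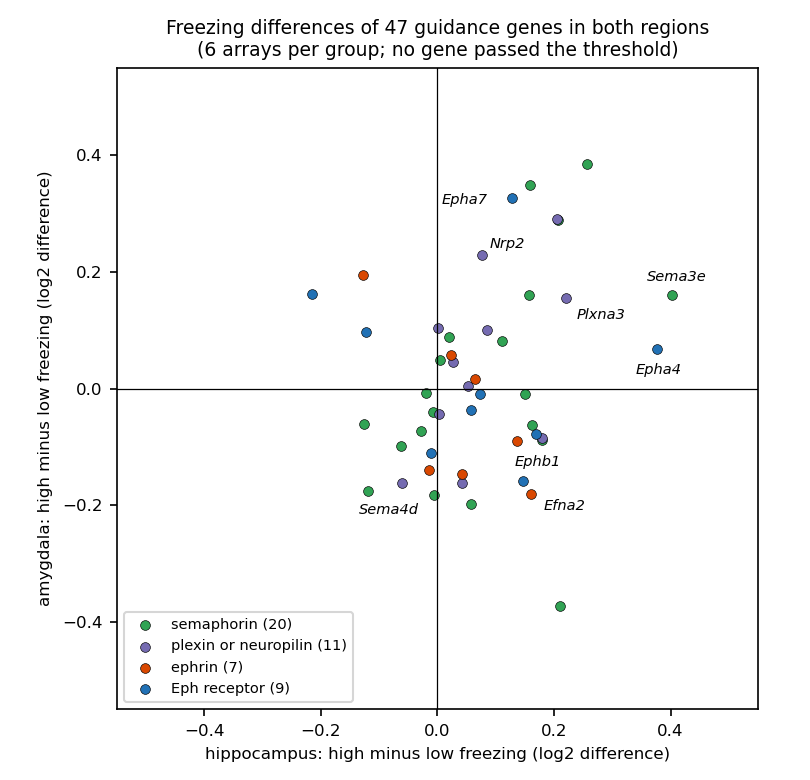
High minus low freezing log2 difference of 47 guidance genes in hippocampus (horizontal axis) and amygdala (vertical axis), each from 6 arrays against 6, coloured by family. No gene passed the threshold; Epha4 and Sema3e lie farthest to the right, and 29 of 47 genes have the same sign in both regions.

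The last comparison asked whether the freezing difference itself differs between the regions. No guidance gene passed this interaction test, and no probe set did either (0% of 27022). At an unadjusted p under 0.05 there were 2 guidance genes, against 6.06% of probe sets. Ephb1 was 135 to 173 (median 150.4) on low and 154 to 187 (median 170.5) on high freezing hippocampus arrays, and 263 to 350.1 (median 304) and 246 to 305 (median 272) on the corresponding amygdala arrays. Its high minus low freezing differences were 0.15 in hippocampus and -0.16 in amygdala, an interaction of -0.31 (95% interval -0.53 to -0.08, unadjusted p = 0.00854, adjusted p = 0.772). Epha4 followed at -0.31 (95% interval -0.58 to -0.04, unadjusted p = 0.0253, adjusted p = 0.817), and Efna2 at -0.34 (95% interval -0.70 to 0.02, unadjusted p = 0.0626, adjusted p = 0.837). Efna2 read 62.6 to 102 (median 73.2) and 67.2 to 109.6 (median 87.9) on low and high freezing hippocampus arrays, and 77 to 129 (median 89.5) and 71 to 92 (median 82.2) in amygdala, so that all 4 groups overlapped. None of the co-receptor, effector, netrin, slit or RGM genes of the lists above passed a freezing comparison in either region.

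Array medians lay between 36.9 and 43.6 intensity units, and arrays of a group correlated at 0.969 to 0.983. The 6 arrays of a group set the limit of precision, in place of a read depth. The split of all called probe sets between the regions moved with the scaling: 7310 higher and 6522 lower as deposited (52.8% higher), 6676 and 7326 after quantile normalization (47.7%), and 5580 and 8605 after median centring (39.3%). The guidance genes split 17 and 19 as deposited and 16 and 19 under both of the other scalings.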

How the data were processed

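The authors deposited 1 linear intensity value per probe set and array, for 45101 probe sets on 24 arrays. No label names the software used. Trimming 2% from both ends of an array's deposited values left a mean of 150 on all 24 arrays. Groups came from the labels. The 64 control probe sets and the dimmest 40% by mean log2 value were left out, leaving 27022. Values were tested as log2(intensity + 16), computed here from the deposited intensity, with limma 3.58.1 in R 4.3.3, 4 group means, an intensity trend, 20 residual degrees of freedom and two-sided tests with Benjamini-Hochberg adjustment. The procedure was tested on simulated data. Gene symbols came from the platform annotation. Alternatives changed the offset, scaling, filter, variance prior, probe set choice, replicate block and arrays included.

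The members and lists were chosen with earlier results of these data known. Values by sample are given for the 8 highest and 8 lowest regional differences past the threshold and the 3 smallest p-values of each freezing comparison and the interaction. Each list names its 3 largest regional differences past the threshold. Listed genes without a uniquely annotated probe set are not analysed here. Promoters and gene order came from RefSeq tables of GRCm38.p6, matched by symbol.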

Additional observations from a re-analysis of the deposited data

Results flagged for a closer look

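In 2 of 80 groups of 6 arrays (20 genes with values by sample, 4 groups each) 1 array stood apart by Dixon's criterion, which chance meets in about 1 group in 20. Epha7 read 509 on low freezing hippocampus replicate 3, where the other 5 arrays lay between 642 and 680.4. Sema3e read 115 on low freezing amygdala replicate 4, where the others lay between 226 and 299.7.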

How the results depend on the processing

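The regional count of 36 guidance genes ranged from 29 (dimmest 60% left out, which tests fewer genes) to 37 (no filter, and probe sets averaged per gene), was 35 within low and 31 within high freezing arrays, and lay between 35 and 36 when 1 array was left out (Sema3g or Efnb2 then lost its call). No guidance gene passed a freezing comparison or the interaction under any setting run. Of 25 single-gene results, 22 kept direction and call under every setting run. The exceptions were Sema3f (log2 difference 0.68, adjusted p = 0.207, within high freezing arrays) and, with probe sets averaged per gene, Epha4 in hippocampus (log2 difference -0.062, adjusted p = 0.772) and its interaction (0.062, adjusted p = 0.976). Over all settings the adjusted p of Epha4 in hippocampus ran from 0.0596 to 0.772. The high minus low freezing difference in hippocampus differed in sign among the 5 Epha4 probe sets, as their values show.

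Replicate numbers are shared between the regions, but array pairs of 1 number did not deviate together (correlations from -0.079 to 0.0865, 0 of 12 over 0.1, and 2 of 12 hippocampus arrays correlating best with their own number). With the replicate block the regional count was 36, and no count of calls moved with the block. Array number and probe set brightness limit these results.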
